A study of Mus musculus with 9 samples.

Results

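The genes described here are the replication-dependent histone genes of the mouse, with H2ax. They were chosen by name: a probe set entered where its 1 annotated gene symbol, or an older synonym of it, began with Hist1h, Hist2h, Hist3h or Hist4h, or was H2ax. This gave 32 probe sets for 32 genes, out of 35556 probe sets and 19938 named genes on the array. By histone type they were 5 linker H1 genes, 5 H2A genes, H2ax, 11 H2B genes, 3 H3 genes and 7 H4 genes. The members lie on chromosomes 13 (23 genes), 3 (4), 11 (3), 6 (1) and 9 (1).

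The study hybridised total RNA of C2C12 cells, an established mouse myoblast line, to Affymetrix whole-transcript arrays. Before the drug, cells received siRNA of 1 of 3 kinds: a control, one to Cugbp1 (now named Celf1) and one to Mbnl1. Celf1 and Mbnl1 proteins both bind RNA. All cultures were grown in DMEM with 10% fetal bovine serum. RNA was taken after 0, 2.5 or 5 h in actinomycin D at 5 ug/ml, a blocker of transcription, to follow mRNA decay. Each siRNA had 1 array at each time, 9 in all, hence 3 arrays per siRNA and 3 per time, with no replicates. The labels do not state whether the 9 RNA samples are of separate cultures, and no culture without the drug was harvested at 2.5 or 5 h, so time and drug cannot be told apart. Every p-value for a difference between times or siRNAs sets it against whatever siRNA-by-time variation the additive model does not hold. For a difference in hourly slope it is the variation left after a straight line in hours per knockdown. With 9 arrays the precision is limited.

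Histones package DNA: H2A, H2B, H3 and H4 form the core of the nucleosome and H1 binds the linker DNA. Most of their mRNAs are made while DNA is copied, and end in a conserved stem-loop bound by Slbp in place of a poly(A) tail. They are known to be degraded quickly when replication ends, whereas mRNAs of variant histones made outside S phase are polyadenylated. A few genes of the clusters, and H2ax, are known to yield polyadenylated transcripts as well.

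Values are log2 of the deposited intensity unless stated otherwise, each from 1 array. Because the arrays were brought to a common distribution, a change is always relative to the rest of the transcripts measured. A gene was tested where its mean log2 intensity was at least 7.385, the median of the named probe sets, which 9864 genes reached; this threshold is not a measured background. Of the 32 histone genes 17 reached it and 15 did not, among them all 3 H3 genes. A gene was called where limma's p, adjusted by Benjamini-Hochberg across the 9864, was under 0.05. Histone genes are near-identical within a type. A probe set annotated with 1 symbol may therefore still pick up RNA of its relatives, and 27 further probe sets that carry several histone symbols fell outside the rule.

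The siRNAs lowered their targets: Celf1 was lower under Cugbp1 siRNA (-2.03 ± 0.09, SE, adjusted p = 3.01e-05), and Mbnl1 was lower under its own siRNA (-2.43 ± 0.09, adjusted p = 1.63e-06). Under Mbnl1 siRNA Celf1 was also lower (-0.59 ± 0.09, adjusted p = 0.000931). The 6 myoblast markers were all above the intensity threshold. Of the markers of differentiated muscle 4 of 6 passed, of macrophages and leukocytes 1 of 5, and of adipocytes and endothelium 0 of 4 and 0 of 3. Median intensity was 104.9 to 113 over the arrays.

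As context for the transcripts compared, the 150 bases before the annotated start of 6 members are printed, from RefSeq (GRCm38.p6): a pair of H2B genes that fell steeply, a pair of H4 genes, and a pair of H1 genes that differed in their fall. Capitals mark matches, on either strand, to the CCAAT box, to TATAA as the core of a TATA box, to ATTTGCAT as the octamer of H2B promoters, to GGTCCG as the core of an H4 promoter element and to AAACACA as the H1 box. Adjoining capitals can belong to overlapping TATA matches on the 2 strands.
H2bc3 (chr13:23746584-23746733, plus strand, GRCm38.p6): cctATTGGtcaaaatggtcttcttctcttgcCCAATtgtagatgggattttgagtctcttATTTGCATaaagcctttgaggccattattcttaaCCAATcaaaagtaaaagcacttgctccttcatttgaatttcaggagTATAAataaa
H2bc14 (chr13:21721894-21722043, plus strand, GRCm38.p6): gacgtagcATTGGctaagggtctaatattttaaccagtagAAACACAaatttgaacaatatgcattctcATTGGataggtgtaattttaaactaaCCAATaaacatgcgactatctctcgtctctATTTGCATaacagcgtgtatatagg
H4c4 (chr13:23581418-23581567, plus strand, GRCm38.p6): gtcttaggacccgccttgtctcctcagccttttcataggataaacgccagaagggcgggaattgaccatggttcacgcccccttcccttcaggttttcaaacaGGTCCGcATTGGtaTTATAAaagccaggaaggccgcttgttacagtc
H4c6 (chr13:23551669-23551818, minus strand, GRCm38.p6): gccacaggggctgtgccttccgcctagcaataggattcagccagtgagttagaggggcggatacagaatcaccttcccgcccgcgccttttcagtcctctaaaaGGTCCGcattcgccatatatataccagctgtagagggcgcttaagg
H1f5 (chr13:21780626-21780775, minus strand, GRCm38.p6): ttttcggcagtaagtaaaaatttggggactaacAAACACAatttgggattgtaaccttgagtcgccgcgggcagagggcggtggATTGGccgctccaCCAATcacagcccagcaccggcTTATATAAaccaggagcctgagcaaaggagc
H1f2 (chr13:23738657-23738806, plus strand, GRCm38.p6): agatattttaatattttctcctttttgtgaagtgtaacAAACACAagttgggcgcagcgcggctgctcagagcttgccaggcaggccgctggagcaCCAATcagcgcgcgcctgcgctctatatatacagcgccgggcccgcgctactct

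Of the 17 tested members 14 had a promoter in the RefSeq table, and H2ax, H2bc4 and H4c14 did not. In the 250 bases before the start the H4 core occurred in 4 of 4 H4 members and in 1 of 4 H2B members, against 6.82% of 27025 promoters. For the octamer the count was 3 of 4 H2B members and 2 of 3 H2A members, against 1.61% of all promoters. The H1 box was found in 2 of 3 H1 members, 1 of 3 H2A members and 1 of 4 H2B members, against 6.22%. A CCAAT box occurred in 11 of 14 members and a TATA core in 10 of 14, against 34.5% and 23.5%. These are letter matches and no measure of binding.

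Most histone transcripts fell steeply once transcription was blocked. At 2.5 h 16 of the 17 tested members were lower than at 0 h and 0 were higher, where 24.2% of all genes were called lower. At 5 h the count was again 16 lower and 0 higher, against 32.8% of all genes. A fall of more than 1 on the log2 scale was called for 12 members at 2.5 h and 13 at 5 h, against 2.37% and 5.49% of all genes. The median change of the members was -1.98 at 2.5 h and -2.21 at 5 h, and that of all genes 0.03 and 0.04. H2bc3 and H4c9 passed the intensity threshold only through their 0 h arrays. A filter at the 60th percentile (log2 8.32) left both out and called 14 of 15 members lower at each time. That filter does not remove the selection through 0 h, since other members passed it by their 0 h arrays. Their means at 2.5 and 5 h were 7.74 and 7.75 (H1f1), 8.17 and 8.18 (H1f5), and 7.73 and 7.56 (H2bc18). In 14 of the 17, every 0 h array lay above every later array, and the exceptions were H1f2, H2ax and H2bc4. The share of all genes whose arrays separate in this way was not taken. In a bulk measurement fewer cells making histone mRNA and less histone mRNA per cell cannot be told apart.

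**Figure D1:**
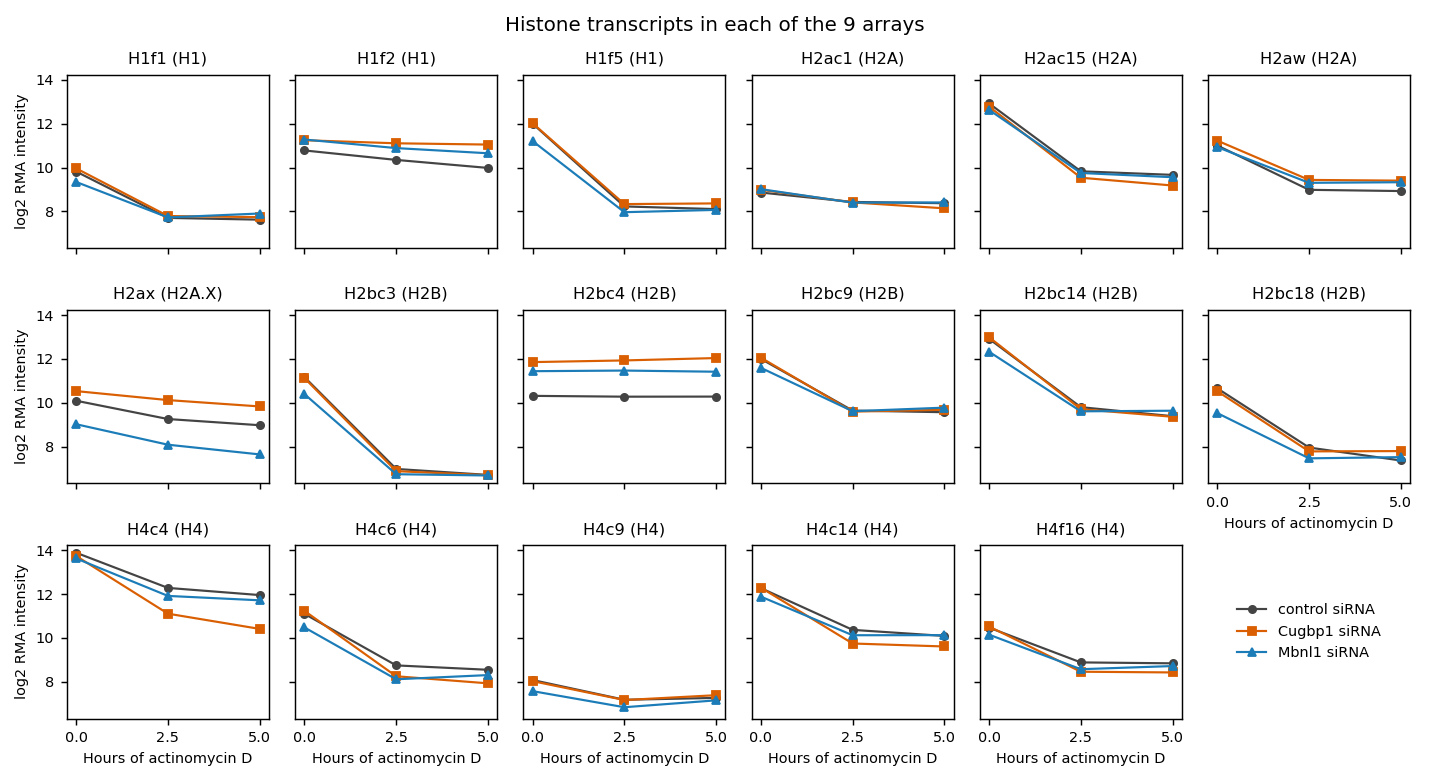
The log2 intensity of each of the 17 tested histone genes (vertical axis) is plotted against hours of actinomycin D (horizontal axis), with 1 point per array and 1 line per siRNA; there are no replicates and no error bars. Most panels drop between 0 and 2.5 h and then level off, H2bc4 stays flat in each siRNA, and H2ax is lowest under Mbnl1 siRNA at each time.

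Among the linker histones, H1f5 and H1f2 stood at opposite ends. H1f5, a linker histone of dividing cells, read 12.005 at 0 h, 8.23 at 2.5 h and 8.10 at 5 h with control siRNA. With Cugbp1 siRNA the values were 12.02, 8.33 and 8.36, and with Mbnl1 siRNA 11.21, 7.96 and 8.07. The 0 h arrays were all well above the later ones, and the fall was -3.57 ± 0.12 (SE) at 5 h (adjusted p = 2.97e-07). H1f2 read 10.78, 10.35 and 9.98 with control siRNA, 11.25, 11.11 and 11.05 with Cugbp1 siRNA, and 11.28, 10.89 and 10.65 with Mbnl1 siRNA. Within each siRNA the later values were lower, but the times overlapped, and its change at 5 h was -0.54 ± 0.10 (adjusted p = 0.00147). The call for H1f2 at 2.5 h (-0.32 ± 0.10, adjusted p = 0.0267) was lost without any 1 of 5 arrays: control 0 h (adjusted p = 0.115), control 2.5 h (0.0796), Cugbp1 2.5 h (0.0815), Mbnl1 0 h (0.0859) or Mbnl1 2.5 h (0.0903); it was also lost with no intensity filter (0.0612). H1f1, the third member of the class, lay between them, with a change of -1.95 ± 0.14 at 5 h.

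In the H2A group, H2ac15 read 12.93, 9.83 and 9.67 with control siRNA, 12.79, 9.54 and 9.18 with Cugbp1 siRNA, and 12.64, 9.75 and 9.56 with Mbnl1 siRNA. Its 0 h arrays stood about 3 log2 units above the others, and the change at 5 h was -3.31 ± 0.09 (adjusted p = 1.39e-07). H2aw, on chromosome 11 and away from the large cluster, was 10.93 to 11.23 at 0 h and 8.93 to 9.40 at 5 h (-1.84 ± 0.08). H2ac1, known as a testis type, moved less: 8.86 to 9.02 at 0 h against 8.14 to 8.41 at 5 h, a change of -0.65 ± 0.07 (adjusted p = 9.02e-05). H2ax encodes H2A.X, the form phosphorylated at DNA breaks. It read 10.09, 9.26 and 8.97 with control siRNA, 10.53, 10.12 and 9.83 with Cugbp1 siRNA, and 9.02, 8.08 and 7.64 with Mbnl1 siRNA. Within each siRNA its value was lower at each later time, and the change at 5 h was -1.07 ± 0.11 (adjusted p = 8.58e-05).

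The H2B genes held both steep falls and the member that was not called lower. H2bc3 read 11.17, 6.98 and 6.70 with control siRNA, 11.13, 6.88 and 6.69 with Cugbp1 siRNA, and 10.40, 6.74 and 6.68 with Mbnl1 siRNA. Its change of -4.21 ± 0.13 at 5 h (adjusted p = 2.44e-07) ended under the intensity threshold, where how much of the signal is background was not measured. H2bc14 went from between 12.33 and 12.99 at 0 h to between 9.36 and 9.63 at 5 h (-3.29 ± 0.15), H2bc18 from between 9.53 and 10.66 to between 7.36 and 7.79 (-2.68 ± 0.20), and H2bc9 from between 11.59 and 12.06 to between 9.57 and 9.78 (-2.21 ± 0.11). H2bc4 behaved otherwise. With control siRNA it read 10.31, 10.28 and 10.28, with Cugbp1 siRNA 11.86, 11.93 and 12.04, and with Mbnl1 siRNA 11.44, 11.47 and 11.42. Each siRNA kept its own level over the time course, and the change at 5 h was 0.04 ± 0.05 (adjusted p = 0.465). That direction depends on the scale: with arrays set to equal medians of cytosolic ribosomal protein genes the H2bc4 change at 5 h was -0.19 (adjusted p = 0.0303), and with oxidative phosphorylation genes -0.27 (adjusted p = 0.00288).

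All 5 tested H4 genes, which encode the same core histone, were lower at both times. H4c4 read 13.89, 12.28 and 11.95 with control siRNA, 13.74, 11.10 and 10.41 with Cugbp1 siRNA, and 13.63, 11.92 and 11.72 in the Mbnl1 arrays. Its 0 h arrays agreed within 0.26, while the later arrays spread with the siRNA; its change at 5 h was -2.39 ± 0.25 (adjusted p = 7.49e-05). H4c6 read 11.10, 8.74 and 8.54 with control siRNA, 11.24, 8.25 and 7.92 with Cugbp1 siRNA, and 10.48, 8.11 and 8.30 with Mbnl1 siRNA, and changed by -2.68 ± 0.18. H4c14, H4f16 and H4c9 changed by -2.21 ± 0.16, -1.72 ± 0.11 and -0.63 ± 0.07 at 5 h; the later means of H4c9 lay under the intensity threshold.

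The fall was nearly over by 2.5 h. From 2.5 to 5 h limma called 0 of the 17 members, where 21.4% of all genes were called in either direction (17% lower, 4.47% higher); at an unadjusted p under 0.05 there were 2 lower (H2ac15 and H2ax) and 1 higher (H4c9), against 36% of all genes in either direction (23.7% lower, 12.3% higher). Of the log2 fall seen at 5 h, the share already reached at 2.5 h had a median of 94.8% over the 16 members that fell. It was at least 80% in 14 of them. The other two were H1f2 (59.3%, difference from 2.5 to 5 h -0.22, adjusted p = 0.142) and H2ax (68.2%, -0.34, adjusted p = 0.0672). At the other end was H4c9 (133.1%, 0.21, adjusted p = 0.0614). The 0 from 2.5 to 5 h depended on the processing and on single arrays. It became 6 lower with equal medians of ribosomal protein genes, where 3120 of the 9864 genes were called lower. With oxidative phosphorylation genes it became 7 lower, where 6266 of the 9864 were. It was 4 lower without the Cugbp1 0 h array, and 3 lower and 1 higher without the Mbnl1 0 h array. Without the Cugbp1 5 h array it was 2 lower, and without the Mbnl1 5 h array 1 lower. Leaving out the control 5 h array gave 1 higher. The share of all genes was not taken for the fits with an array left out.

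The 15 members under the threshold were fitted apart. In a fit of all 19938 genes without the threshold, 12 of the 15 were lower and 0 higher at 2.5 h, and again 12 and 0 at 5 h, where 11.9% and 17.3% of those genes were lower. Their changes at 5 h ran from -4.09 to 0.14. The probe sets shared by several histone genes covered the types that the single-gene probe sets measured poorly. All 10 shared H3 probe sets, each with 12 symbols, were lower at 5 h (-3.07 to -2.89), as were 7 of 7 shared H2B probe sets (-2.58 to -2.28) and 5 of 5 shared H4 probe sets (-2.30 to -1.89). These come from a fit of 14869 probe sets, chosen after the data were seen, in which 26.2% were called lower at 5 h. Shared probe sets of a type carry nearly the same symbols and are not independent: the 5 H4 probe sets hold only 4 distinct sets of values, and the 7 H2B probe sets 6.

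Under Cugbp1 siRNA the levels of a few members differed from control over the 3 times, in both directions. H2bc4 was higher by 1.65 ± 0.05 (SE, adjusted p = 7.22e-06), H1f2 by 0.76 ± 0.10 (adjusted p = 0.00185), H2ax by 0.72 ± 0.11 (adjusted p = 0.00469) and H2aw by 0.38 ± 0.08 (adjusted p = 0.0158). Lower were H4c4 (-0.96 ± 0.25, adjusted p = 0.0314) and H2ac15 (-0.31 ± 0.09, adjusted p = 0.0449). That is 6 of 17 members, or 4 higher and 2 lower, where 19.2% of all genes were called in either direction, 10.5% higher and 8.67% lower. The median over the members was 0.02 and over all genes 0.01. In each Cugbp1 array H2bc4 was above the control array of the same time, by 1.54 at 0 h, 1.66 at 2.5 h and 1.76 at 5 h, which is a linear fold of 2.91 to 3.39. The lower level of H4c4 and H2ac15 lay mostly in the later arrays. H4c4 differed from control by -0.15 at 0 h, -1.18 at 2.5 h and -1.545 at 5 h. H2ac15 differed by -0.14, -0.29 and -0.49.

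The calls for H1f2, H2ax and H2bc4 held under every alternative tried. The other three did not. With no intensity filter H4c4 (adjusted p = 0.0847) and H2ac15 (0.118) were not called, which left 0 lower and 5 higher of 32 members; a fit of all probe sets also lost both (0.0602 and 0.0777). H2aw lost its call without the control 2.5 h (0.34, adjusted p = 0.0873), control 5 h (0.31, adjusted p = 0.0688), Cugbp1 2.5 h (0.37, adjusted p = 0.0788) or Cugbp1 5 h array (0.38, adjusted p = 0.0548). For H4c4 the call was lost without the control 2.5 h (-0.88, adjusted p = 0.133), control 5 h (-0.82, adjusted p = 0.124), Cugbp1 2.5 h (-0.87, adjusted p = 0.136), Cugbp1 5 h (-0.65, adjusted p = 0.0935) or Mbnl1 2.5 h array (-0.96, adjusted p = 0.0564). H2ac15 lost it without any array except the Cugbp1 0 h, Mbnl1 0 h and Mbnl1 5 h arrays (-0.33 to -0.21, adjusted p = 0.0693 to 0.159). The count was 3 without the control 2.5 h, control 5 h, Cugbp1 2.5 h or Cugbp1 5 h array. Shares over all genes were not taken for these fits.

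Under Mbnl1 siRNA H2bc4 was again higher than control (1.15 ± 0.05, adjusted p = 2.66e-06), and so was H1f2 (0.57 ± 0.10, adjusted p = 0.00149). H2ax was lower (-1.19 ± 0.11, adjusted p = 7.1e-05), as were H4c6 (-0.50 ± 0.18, adjusted p = 0.0429), H1f5 (-0.36 ± 0.12, adjusted p = 0.0342) and H4c9 (-0.32 ± 0.07, adjusted p = 0.00423). That is 2 higher and 4 lower of 17 members, where 55% of all genes were called in either direction, 31% lower and 24% higher. The median over the members was -0.20 and over all genes -0.02. At 0, 2.5 and 5 h H1f5 differed from control by -0.79, -0.26 and -0.04. For H4c6 the differences were -0.62, -0.63 and -0.24, for H4c9 -0.51, -0.34 and -0.11, and for H2ax -1.07, -1.17 and -1.33. Both knockdowns share the control arrays, so their values are given side by side and not as independent observations. H2bc4, H1f2 and H2ax were called under every alternative tried, and H4c9 under every one that tested it; a filter at the 60th percentile left it out. H1f5 lost its call without the control 0 h (-0.23, adjusted p = 0.154), control 2.5 h (-0.38, adjusted p = 0.0828), Cugbp1 2.5 h (-0.36, adjusted p = 0.0515), Mbnl1 0 h (-0.18, adjusted p = 0.0583) or Mbnl1 2.5 h array (-0.42, adjusted p = 0.0557). With no intensity filter H1f5 and H4c6 were not called (adjusted p = 0.0759 and 0.0904), nor in the fit of all probe sets (0.0562 and 0.0691). H4c6 lost its call without any array except the Cugbp1 0 h, Cugbp1 5 h and Mbnl1 5 h arrays (-0.58 to -0.32, adjusted p = 0.0622 to 0.166). Without the Mbnl1 5 h array 10 members were called, 8 lower and 2 higher. For that fit the share of all genes was not taken.

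Taking the times apart, 14 of the 17 members were below control at 0 h under Mbnl1 siRNA, with a median difference of -0.41. At 2.5 h 13 were below and 4 above (median -0.24), and at 5 h 8 were below and 9 above (median 0.04). Under Cugbp1 siRNA 12 were above and 5 below at 0 h (median 0.05), 6 above and 11 below at 2.5 h (median -0.05), and 9 above and 8 below at 5 h (median 0.11). These differences come from 1 array on each side and have no test. The same counts were not taken over all genes.

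Set against each other, the knockdowns differed most at H2ax, which was lower under Mbnl1 than under Cugbp1 siRNA by a fitted -1.91 ± 0.11 (adjusted p = 8.34e-06). H2bc4 (-0.50 ± 0.05, adjusted p = 9.7e-05), H1f5 (-0.49 ± 0.12, adjusted p = 0.00928) and H4c9 (-0.34 ± 0.07, adjusted p = 0.00308) were lower too, and H4c4 was higher (0.67 ± 0.25, adjusted p = 0.0471). In all 5 of 17 members were called, against 56.4% of all genes (33.4% lower, 23% higher). The call for H4c4 was lost without any 1 array of 2.5 or 5 h (0.36 to 0.67, adjusted p = 0.0541 to 0.194), with no intensity filter (0.096), in the fit of all probe sets (0.0749) and with every probe set on its own (0.051). The count was 9 without the Cugbp1 0 h array and 8 without the Mbnl1 5 h array. With an array left out the share of all genes was not taken.

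**Figure D2:**
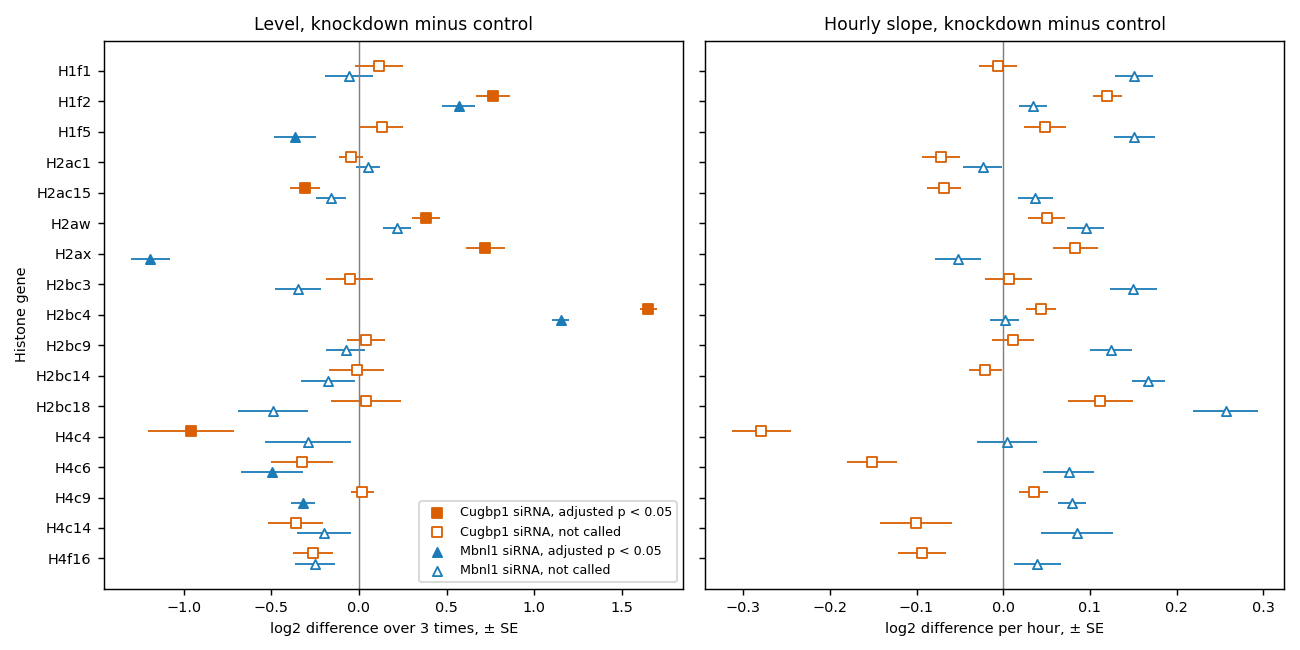
For each tested histone gene the left panel gives the fitted log2 difference in level, knockdown minus control over the 3 times, and the right panel the difference in log2 slope per hour; bars are standard errors from limma, squares Cugbp1 and triangles Mbnl1 siRNA, filled where the adjusted p was under 0.05. H2bc4 lies farthest right in the level panel in both knockdowns, and no point in the slope panel is filled.

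Whether decay itself differed was read from the hourly log2 slope in a knockdown minus that in control. Under Cugbp1 siRNA limma called 0 of 17 members and 0% of all genes. At an unadjusted p under 0.05 there were 10 members, 6 lower and 4 higher, against 11.4% of all genes (2.55% lower, 8.89% higher); the lowest adjusted p was 0.32. The H4 genes made 4 of the 6 lower: H4c4 (-0.28 ± 0.03 per h), H4c6 (-0.15 ± 0.03), H4c14 (-0.10 ± 0.04) and H4f16 (-0.09 ± 0.03), while H4c9 had 0.04 ± 0.02. Of the 0 h signal of H4c4, 26.2% was left at 5 h under the control, 9.95% under Cugbp1 siRNA and 26.6% under Mbnl1 siRNA, each relative to its own 0 h array. For H4c6 the shares were 17%, 10.1% and 22.1%, for H4c14 22%, 15.5% and 29.5%, and for H4f16 32.3%, 23.4% and 37%. Each of these 4 thus had its smallest remaining share under Cugbp1 siRNA. The 5 shared H4 probe sets past the intensity threshold gave 24.2% to 31.5% with control and 13.7% to 19.1% with Cugbp1 siRNA. With Mbnl1 siRNA they gave 25.3% to 32.9%. These 5 carry nearly the same symbols and read the same arrays, so they are not separate observations. A sixth shared H4 probe set, with 2 symbols and under the threshold, went the other way, with 36.5% left under the control, 55.2% under Cugbp1 and 35.7% under Mbnl1 siRNA. The slope difference of the 5, -0.16 to -0.13 per h, was not called either (adjusted p = 0.488). The median share left in shared H3 probe sets was 12%, 11.2% and 15.5%, and in shared H2B probe sets 13%, 20.4% and 21% for control, Cugbp1 and Mbnl1 siRNA; the difference between types was not tested.

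**Figure D3:**
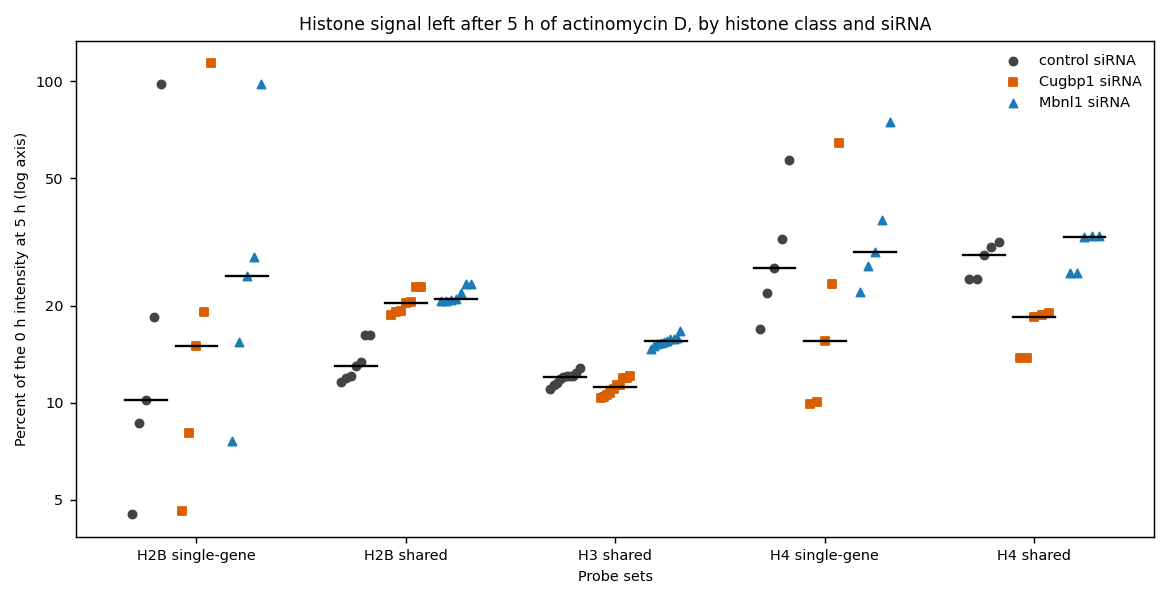
The vertical axis (log scale) gives the percent of the 0 h intensity still present at 5 h within each siRNA, and each point is 1 probe set, single-gene or shared by several genes of a type, past the intensity threshold; black lines are medians. Shared H4 probe sets lie lower under Cugbp1 siRNA (13.7% to 19.1%) than with control siRNA (24.2% to 31.5%).

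Under Mbnl1 siRNA limma also called 0 of 17 members, where it called 0.0203% of all genes, which is 2. At an unadjusted p under 0.05 there were 9 members, 0 with a lower and 9 with a higher slope, against 7.93% lower and 5.87% higher among all genes (13.8% in either direction). A higher slope here means a smaller fall than with control siRNA. The lowest adjusted p was 0.0514, for H2bc14 (0.17 ± 0.02 per h); H2bc18 (0.26 ± 0.04), H1f1 (0.15 ± 0.02) and H1f5 (0.15 ± 0.02) had adjusted p = 0.0696, 0.0696 and 0.084. H1f5 had 6.7% left at 5 h with control and 11.3% with Mbnl1 siRNA. For H2bc3 the shares were 4.51% and 7.59%. Its 5 h values were nearly equal, 6.70 with control and 6.68 with Mbnl1 siRNA, and lay under the intensity threshold. The 0 h levels of the genes named here were below control under Mbnl1 siRNA, by a difference of -0.79 for H1f5 and -1.13 for H2bc18. Their 5 h levels differed less. The median slope difference of the members was 0.08 and of all genes 0.0012. Without the Mbnl1 2.5 h array 6 of these were called (H1f1, H1f5, H2bc3, H2bc9, H2bc14 and H2bc18, all higher), and other processing gave up to 7. Among the settings that gave calls, the count over all genes was taken only with rescaling. With ribosomal protein medians 20 of all genes had a higher and 293 a lower slope.

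The machinery of histone mRNA, DNA replication and the variant histones was looked at as lists. Slbp, whose product binds the stem-loop, read 10.30, 10.04 and 9.81 with control, 9.44, 9.10 and 8.87 with Cugbp1 and 9.78, 9.63 and 9.41 with Mbnl1 siRNA. Every Cugbp1 array was below every Mbnl1 and control array except that the Mbnl1 5 h array fell just below the Cugbp1 0 h array. Its level differed from control by -0.91 ± 0.05 (adjusted p = 4.24e-05) under Cugbp1 and by -0.44 ± 0.05 (adjusted p = 0.000114) under Mbnl1 siRNA. At 0 h, where Slbp was already below control under Cugbp1 siRNA, the H4 members differed from control by -0.15 (H4c4), -0.05 (H4c9), 0.02 (H4c14), 0.05 (H4f16) and 0.14 (H4c6). At 5 h the share of H4c9 left was 56.8% with control and 64.1% with Cugbp1 siRNA, unlike the other 4 H4 members. Under Mbnl1 siRNA, with Slbp lower as well, no tested H4 member had a smaller share left at 5 h than with control. At 2.5 h H4c4 had 30.6% left under Mbnl1 siRNA and 32.8% with control, and H4c6 19.4% and 19.5%. The other tested H4 members had a larger share left at 2.5 h under Mbnl1 siRNA. The part of Slbp in the H4 values was not tested.

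**Figure D4:**
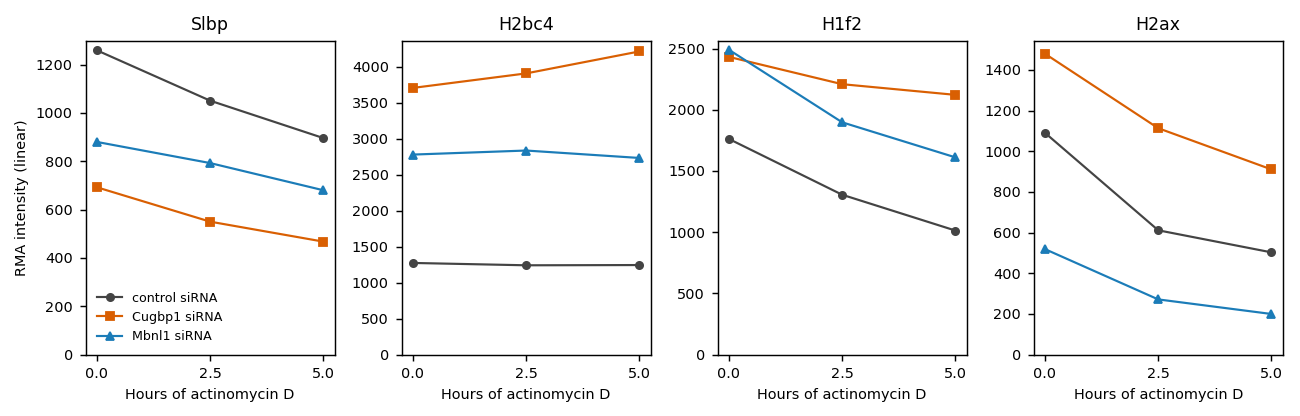
Linear intensity (vertical axes, from 0) of Slbp and of the 3 histone genes called under both knockdowns and in every alternative is plotted against hours of actinomycin D, with 1 point per array and 1 line per siRNA, without error bars. Slbp is highest with control siRNA at each time, H2bc4 lowest with control siRNA, and H2ax highest with Cugbp1 and lowest with Mbnl1 siRNA.

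Among 28 tested genes of histone mRNA 3′-end processing 5 were higher and 16 lower at 5 h, against 35.6% higher and 32.8% lower among all genes, led by Cstf1, a cleavage stimulation factor subunit (-1.64 ± 0.05), and Casp8ap2 (-1.10 ± 0.09). Under Cugbp1 siRNA 4 were higher and 1, Slbp, lower, against 10.5% and 8.67% of all genes; under Mbnl1 siRNA 3 were higher and 13 lower, against 24% and 31% of all genes, with the cap-binding subunit Ncbp2 lowest (-0.84 ± 0.09). Of 26 histone transcription factors and chaperones 3 were higher and 9 lower at 5 h, a lower share near that of all genes (32.8%); Npat, a coactivator of histone genes, fell by 1.22 on the log2 scale and Daxx by 1.17. Npat did not pass the test in either knockdown against control. Under Mbnl1 siRNA 1 of the 26 was higher and 16 were lower, against 24% and 31% of all genes, led by the chaperone genes Asf1b (-0.69 ± 0.05) and Hira (-0.58 ± 0.06).

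DNA replication genes went both ways: of 42 tested, 11 were higher and 9 lower at 5 h, against 35.6% and 32.8% of all genes, with Cdt1, a licensing factor, at -1.60 ± 0.06. Pcna, the sliding clamp, changed by 0.02 (adjusted p = 0.586). Under Mbnl1 siRNA 40 of the 42 were lower and 0 higher, against 31% lower among all genes, with Pola1 at -0.84 ± 0.05 and a median of -0.38; under Cugbp1 siRNA 2 were higher and 3 lower, against 10.5% and 8.67%. Of 6 markers of differentiated muscle 4 were tested, and all 4 were called higher under Mbnl1 siRNA, against 24% of all genes. Myog and Myh3 were under the threshold, and Myog was below control at each time. Myh3 read 6.79, 6.65 and 6.60 with Mbnl1 siRNA against 6.68, 6.46 and 6.70 with control siRNA. The summed intensity of the 6 markers was 1757 to 2636 over the arrays. These values stand beside the lower 0 h histone levels under Mbnl1 siRNA, and their part in those was not tested. Of the variant histones made outside S phase 4 of 7 tested were called higher at 5 h and 0 lower, against 35.6% and 32.8% of all genes, with Macroh2a2 and H2az2 both at 0.26 ± 0.04. That direction is not secure, since equal medians of oxidative phosphorylation genes move the median of all genes by -0.32 at 5 h and those of ribosomal protein genes by -0.23. H2az1 changed by 0.07 (adjusted p = 0.102). Under Mbnl1 siRNA 4 of the 7 were lower and 1 higher, against 31% and 24% of all genes, with a median of -0.29; the lowest was Cenpa, the centromeric H3 variant (-0.58 ± 0.04). H3f3a was under the intensity threshold, and H3f3b had no probe set with a single symbol.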

How the data were processed

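Values of the 9 arrays were deposited by the authors as intensity, made with RMA in Affymetrix Expression Console per the submitters' processing notes (versions: not given in the sources used here). Extraction was with an RNeasy kit and 100 ng of RNA went into labelling, per the labels. The linear scale was read from the values, and log2 was taken here with no offset, since no value was at or below 0. RMA removes overall differences between arrays.

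Of 35556 probe sets, 21789 had 1 symbol, 1621 several and 12146 none, from GEO's platform annotation, updated through RefSeq gene IDs. Genes with a mean log2 of at least 7.385 were fitted, by the probe set of highest mean. R 4.3.3 and limma 3.58.1 (lmFit, eBayes) fitted siRNA and time as factors (4 residual degrees of freedom). Slopes used a shared time course plus a straight line in hours per knockdown (2 residual degrees of freedom). The scripts were tested on simulated data.

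Every tested member was named, with Slbp, Npat, Pcna, H2az1, H3f3a, H3f3b and the siRNA targets. As examples from each companion list, the largest or the 2 largest called changes of some comparisons were named. The members and lists were chosen with earlier results of these data known. Alternatives were other filters, an offset of 32, every probe set on its own, 2 rescalings, a variance trend and robust eBayes. Each array was also left out in turn, and, chosen after seeing the data, all probe sets were put in 1 fit. For slopes a further alternative kept all arrays and replaced hours by an indicator of 5 h. Its coefficient is the difference from control at 5 h minus the mean difference at 0 and 2.5 h, and is not per hour.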

Additional observations from a re-analysis of the deposited data

How the results depend on the processing

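The falls at 2.5 and 5 h were stable: leaving out 1 array gave 15 to 16 and 16 to 16 members, and 15 and 16 members were called under every alternative that tested them. A filter at the 60th percentile left out H2bc3 and H4c9 and called 14 of 15 at each time. Both later means of H1f1, H1f5 and H2bc18 lay under that filter, so their 0 h arrays carried them past it. Without the intensity filter, 27 and 28 of 32 members were called. H2bc4 at 5 h reversed to -0.19 with equal medians of cytosolic ribosomal protein genes and to -0.27 with oxidative phosphorylation genes. From 2.5 to 5 h the 0 calls became 1 with an offset of 32, 2 with a variance trend, and 0 to 4 with an array left out. With those rescalings they became 6 and 7, where 3120 and 6266 of all genes were called lower. As arrays were left out, the level calls ranged from 3 to 9 under Cugbp1 siRNA and from 4 to 10 under Mbnl1 siRNA. Between the knockdowns they ranged from 4 to 9. Oxidative phosphorylation medians also gave 10 under Mbnl1 siRNA, where 1204 of all genes were called higher and 4840 lower. Slopes under Cugbp1 siRNA gave 0 to 0 with an array left out and 2 with a variance trend. With ribosomal protein medians they gave 2, where 5 of all genes were higher and 7 lower. Slopes under Mbnl1 siRNA gave 0 to 6 with an array left out, 4 with a filter at the 60th percentile and 1 with an offset of 32. A variance trend gave 7, and ribosomal protein medians gave 5, where 20 of all genes were higher and 293 lower. The cause was not tested. Counts over all genes were not taken for an array left out, the 60th percentile filter, the offset or the variance trend. The member counts of those settings therefore have no share of all genes beside them.

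No paired analysis was possible because the labels give no replicate numbers; the fits already hold siRNA and time as factors, so times are compared within siRNA and siRNAs within time. Signal near background limits H2bc3 and H4c9 at later times and the 15 members under the filter, and with 1 array a condition no value has its own error.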
